A study of Mus musculus with 5 samples.

Results

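The interferon-induced transmembrane genes measured here were Ifitm1, Ifitm2, Ifitm3, Ifitm6 and Ifitm10, 5 genes of the 24399 in the count table. They were chosen by family name. The choice also used the KO-against-WT contrast, since Ifitm1 was already known to be lower in the KO-titled libraries while other interferon genes were higher, so the members' differences in that contrast are given as a description and carry no test. Of the 5, 4 passed the filter on low counts and Ifitm10 did not.

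IFITM proteins are small membrane proteins that stop enveloped viruses from fusing with the cell's membranes. IFITM3 and IFITM2 act mainly in endosomes, to which a sorting signal in their longer amino-terminal part takes them, while IFITM1, which lacks that part, sits mainly at the cell surface. Stem cells express members of the family without interferon, and interferon raises them further through STAT and IRF transcription factors that bind the interferon-stimulated response element (ISRE).

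RNA sequencing was done on LSK cells of C57BL/6 mice aged 12 months. These marrow cells are sorted for Sca1 and cKit and against lineage markers, and contain blood stem cells and early progenitors. The study used a germ line knockout, and its 5 libraries were 3 titled KO and 2 titled WT. Titles and genotype fields disagree for the former, whose genotype is entered as heterozygous, so they are called KO-labelled here; the latter are entered as wild type. No drug or interferon treatment is named, and separate animals are not stated, so the errors cover variation between these samples that may be technical.

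With 1 transcript row kept per gene, the libraries held 29964556 to 39691066 counts. The gate's markers were present, Kit at 1086 to 1227 CPM and Ly6a, the gene of Sca1, at 74.9 to 104 CPM. The lineage genes Cd3e and Ms4a1 lay at 0.277 to 3.24 CPM, but Itgam, the gene of the myeloid lineage marker CD11b, reached 38.7 to 96.4 CPM. All 5 libraries expressed Xist (11561 to 22663 counts) and none exceeded 4 counts of a Y-linked gene of the list (Ddx3y, Uty, Kdm5d, Eif2s3y).

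The promoter windows of the 4 tested members are shown because they differ in the interferon element that the family is known for. Each runs from 250 bases before to 50 bases after an annotated start in RefSeq (build GRCm38.p6), 5′ to 3′ on the gene's strand. In Ifitm3 and Ifitm2 the capitals mark matches to the ISRE core, searched on both strands as GAAA, any 2 bases and GAAA. Ifitm1 and Ifitm6 had no match, and there the capitals mark its half-site GAAAC. Ifitm3 lies at chr7:141010695-141010994, minus strand, Ifitm2 at chr7:140955912-140956211, minus strand, Ifitm1 at chr7:140967826-140968125, plus strand, and Ifitm6 at chr7:141016843-141017142, minus strand.
Ifitm3: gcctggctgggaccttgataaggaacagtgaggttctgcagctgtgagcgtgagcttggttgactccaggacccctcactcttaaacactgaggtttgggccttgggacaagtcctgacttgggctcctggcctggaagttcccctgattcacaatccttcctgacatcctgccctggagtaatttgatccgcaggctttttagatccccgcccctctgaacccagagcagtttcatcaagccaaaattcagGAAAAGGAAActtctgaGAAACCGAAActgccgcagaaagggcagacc
Ifitm2: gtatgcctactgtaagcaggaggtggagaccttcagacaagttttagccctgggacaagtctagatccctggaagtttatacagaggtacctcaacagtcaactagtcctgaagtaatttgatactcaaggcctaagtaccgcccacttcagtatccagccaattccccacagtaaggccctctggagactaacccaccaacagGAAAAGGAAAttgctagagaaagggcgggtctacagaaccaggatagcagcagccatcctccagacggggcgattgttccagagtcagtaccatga
Ifitm1: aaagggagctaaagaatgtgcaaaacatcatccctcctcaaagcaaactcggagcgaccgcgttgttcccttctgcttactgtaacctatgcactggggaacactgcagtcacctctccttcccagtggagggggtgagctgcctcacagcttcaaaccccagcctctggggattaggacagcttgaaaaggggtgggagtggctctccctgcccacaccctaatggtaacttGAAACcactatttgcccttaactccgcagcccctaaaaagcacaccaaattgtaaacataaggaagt
Ifitm6: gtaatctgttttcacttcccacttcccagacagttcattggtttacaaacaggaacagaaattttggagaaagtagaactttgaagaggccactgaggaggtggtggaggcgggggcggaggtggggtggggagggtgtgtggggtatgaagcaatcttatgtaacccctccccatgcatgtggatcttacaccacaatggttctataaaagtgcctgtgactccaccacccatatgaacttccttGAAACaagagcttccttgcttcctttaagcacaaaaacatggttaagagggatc

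The Ifitm3 window held 2 ISRE cores, starting 3 and 20 bases into the transcript, and the Ifitm2 window held 1, starting at position -46 from the start. Of all 32851 promoter windows of 300 bases in the table, 3.44% held at least 1 core on either strand and 0.225% held 2 or more. A match to GAS, the interferon-gamma-activated site, searched as TTC and GAA with 3 bases between them, overlapped the later core of Ifitm3, and 3 of the 4 half-sites GAAAC of this window overlapped its cores. The Ifitm6 window held 1 GAS match, at position -10. It also held the TATA box, searched as TATAAA, at -46, and the Ifitm2 window held one on the other strand, at -175. The CCAAT box and the GC box, searched as GGGCGG, occurred in both the Ifitm6 and Ifitm2 windows, and the GC box in that of Ifitm3. GAS was found in 8.3%, TATAAA in 13.6%, CCAAT in 37.4%, GGGCGG in 35.7% and GAAAC in 45% of all windows. In the Ifitm1 window none of these motifs was found other than 1 GAAAC, at -17. GENCODE gives Ifitm1 3 start sites, of which 1 window was in the table, so the others were not searched. All of the matches describe letters in a window and do not show binding.

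**Figure D1:**
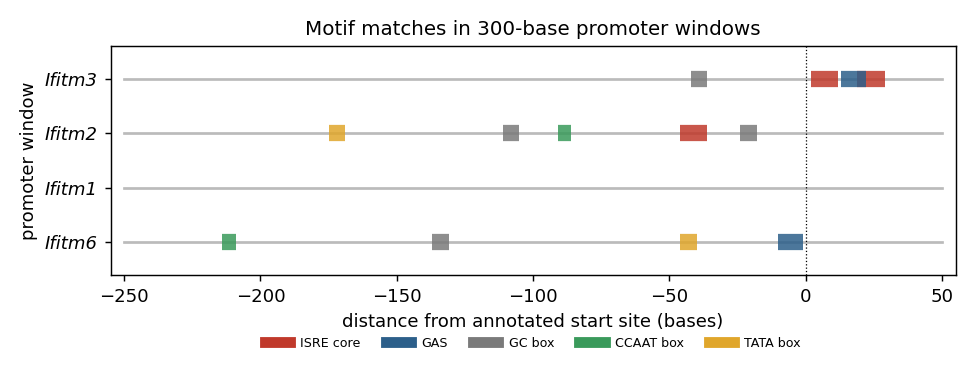
Positions of motif matches on either strand in the 300-base promoter windows of 4 Ifitm genes (horizontal axis, bases from the annotated start site; coloured blocks, matches; GAAAC half-sites are not drawn). The ISRE core lies in Ifitm3 (2 matches) and Ifitm2 (1 match), and the Ifitm1 window holds no block.

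CpG dinucleotides were below the median of all windows in each of these, and below the lower quartile only in that of Ifitm6. Ifitm1 and Ifitm3 had 5 each, Ifitm2 had 4 and Ifitm6 had 2, against a median of 7 over all windows (quartiles 3 and 20). Ifitm10, the family's more distant member, has 3 windows in the table, with 2, 28 and 32 CpG and no ISRE core.

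The coding parts span 435 bases in Ifitm2 and 414 in Ifitm3, against 321 in Ifitm1, 315 in Ifitm6 and 489 in Ifitm10 (GENCODE transcripts matched to the RefSeq rows). Over aligned bases, Ifitm1 shared 81.0% with Ifitm3 and 79.9% with Ifitm2, Ifitm2 and Ifitm3 shared 79.6%, and Ifitm6 shared 65.3% to 69.3% with those 3 genes.

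Such likeness bears on read counts. Of all 50-base windows of the Ifitm1 transcript, 7.71% also occur in a transcript of another gene, 2.18% in Ifitm3. For Ifitm3 the share was 10%, and for Ifitm6 it was 0%. For Ifitm2 it was 48.5%, of which Gm45717, a gene model that overlaps Ifitm2, accounted for 36.1% of windows and Ifitm3 for 3.3% and processed pseudogenes for others. How reads shared between features were counted is not given in the sources used here, so the level of Ifitm2 is uncertain. Gm45717 has no row in the counts, and reads from the windows that Ifitm2 shares with it cannot be assigned to either.

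Ifitm1, the member that acts mainly at the cell surface, was lower in the KO-labelled libraries. Its levels were 164, 146 and 128 CPM (read counts scaled to a common library total by TMM) in KO libraries 1, 2 and 3, and WT libraries 1 and 2 had 323 and 299 CPM. The KO-labelled libraries all lay below both WT libraries, and the gap between the groups exceeded the range within either. The group means were 146 ± 18.0 (SD, n = 3) against 311 ± 16.8 CPM (SD, n = 2), a log2 fold change of -1.09 ± 0.10 (SE), or 2.13-fold lower. These are the values for which the gene was chosen. Of all 14565 genes tested, 499 had a lower log2 fold change. The table holds 2 Ifitm1 transcripts, NM_001112715 and NM_026820, with 38053 and 37993 counts in total, so they carried nearly the same reads and say nothing of separate isoforms.

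Ifitm3, the endosomal member with 2 ISRE cores, stood at 344, 292 and 304 CPM in the KO-labelled libraries, in the same order, and at 295 and 314 CPM in the WT libraries. The groups overlapped. Its log2 fold change was 0.04 ± 0.09. Ifitm2, the other endosomal member, stood at 218, 191 and 192 CPM in the KO-labelled and 211 and 212 CPM in the WT libraries. These groups overlapped as well, with a log2 fold change of -0.08 ± 0.09. The highest value of both genes came from KO library 1. In that library, 545 tested genes with transcripts of 600 to 900 bases, a range that holds all 4 measured members, stood a median of 0.13 on the log2 scale above their mean over the 5 libraries, against 0.004 for all tested genes; the part of this in the Ifitm values was not tested. Without KO library 1 the log2 fold changes were -0.03 ± 0.07 for Ifitm3 and -0.14 ± 0.07 for Ifitm2, and that of Ifitm1 was -1.18 ± 0.08.

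Ifitm6, a member known from myeloid cells, was scarce. Its counts were 27, 32 and 35 in the KO-labelled and 115 and 86 in the WT libraries, or 0.748, 0.819 and 0.886 against 3.84 and 2.20 CPM. The KO-labelled libraries lay close together and below both WT libraries, which were farther apart. Exact Poisson 95% intervals, which cover counting error only, ran from 17.8 to 48.7 counts over the KO-labelled libraries and from 68.8 to 138 over the WT libraries. The log2 fold change was -1.88 ± 0.54, and it moved to -1.42 ± 0.75 without WT library 1 and to -2.22 ± 0.60 without WT library 2.

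Ifitm10 was at or near 0. KO library 1 had 14 counts and WT library 2 had 2, while KO libraries 2 and 3 and WT library 1 had 0. Taking 3 counts as the limit that a count of 0 allows (one-sided, unlike the two-sided intervals given for Ifitm6), these 0 counts allow up to 0.076 to 0.10 CPM. An overlapping gene model, Gm49369, shares 5% of its 50-base windows.

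**Figure D2:**
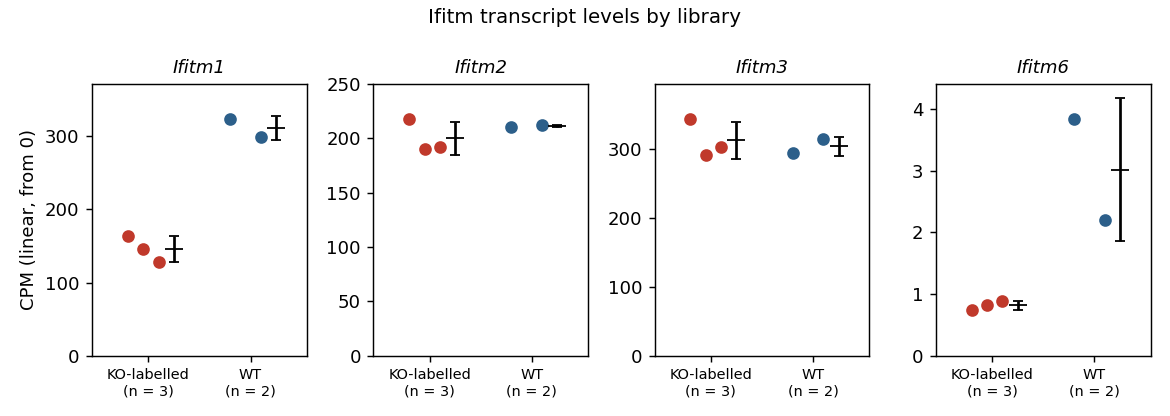
CPM of 4 Ifitm genes in each library (vertical axes linear from 0, with a scale of their own per gene; points, libraries; bars, mean ± SD). Ifitm1 and Ifitm6 separate the groups, with Ifitm1 at 128 to 164 CPM in KO-labelled and 299 to 323 CPM in WT libraries, while Ifitm2 and Ifitm3 overlap.

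Of the 4 tested members, 1, Ifitm1, passed an adjusted p of 0.05 in the fit across all genes (edgeR's quasi-likelihood test with Benjamini-Hochberg adjustment) as lower, where 1.97% of all tested genes passed in either direction and 1.18% as lower. Both Ifitm1 and Ifitm6 had KO-labelled values all below the WT values, as 16.3% of all tested genes did (32.8% in either direction). Since the choice of the members used this contrast, nothing is read from these counts. Without WT library 1, a setting in which 6 genes of all passed, Ifitm1 was not among those past the threshold.

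Ratios within a library need no scaling between libraries. There were 0.476, 0.502 and 0.421 Ifitm1 reads per Ifitm3 read in the KO-labelled and 1.10 and 0.952 in the WT libraries. The ratio was 2.20-fold higher in the mean of the WT libraries, and the groups did not overlap. Per Ifitm2 read there were 0.752, 0.769 and 0.665 Ifitm1 reads in the KO-labelled and 1.53 and 1.41 in the WT libraries. The ratio of Ifitm2 to Ifitm3 was 0.633, 0.653 and 0.632 in the KO-labelled and 0.715 and 0.674 in the WT libraries. Its groups did not overlap either, and its WT mean was 1.09-fold higher. Relative to both of its neighbours in the cluster, Ifitm1 was thus lower in all KO-labelled libraries, whatever the scaling.

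**Figure D3:**
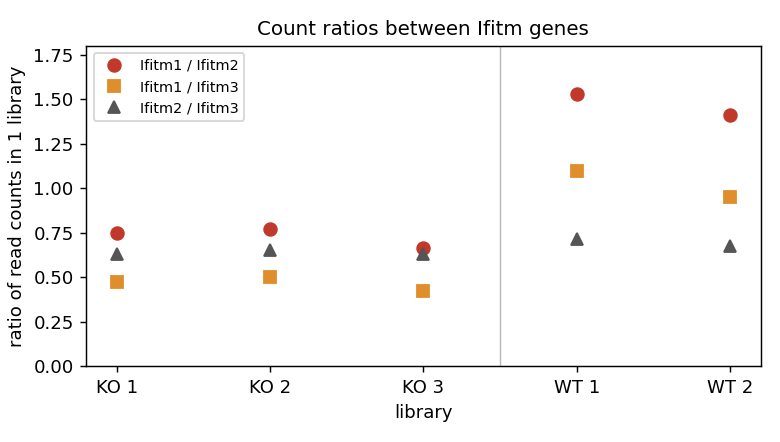
Ratios of read counts between Ifitm genes within each library (vertical axis linear from 0; 1 point per library and ratio). Both ratios with Ifitm1 on top are lower in the 3 KO-labelled libraries (0.421 to 0.769) than in the 2 WT libraries (0.952 to 1.53), while Ifitm2 / Ifitm3 lies between 0.632 and 0.715, also lower in the KO-labelled libraries.

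The make-up of the family differed accordingly. Ifitm1 held 22.5%, 23.3% and 20.5% of the family's reads in the KO-labelled and 38.8% and 36.2% in the WT libraries. Ifitm3 held 46.3% to 48.7% in the KO-labelled and 35.4% and 38.0% in the WT libraries. Summed over all 5 members, the family stood at 660 ± 57.6 CPM (SD, n = 3) against 830 ± 3.31 CPM (SD, n = 2), with the KO-labelled libraries at 624 to 726 CPM, below both WT libraries.

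The order of the members by level per transcript length also differed by group. In WT libraries Ifitm3 stood at 449 ± 20.4 and Ifitm1 at 423 ± 22.8 CPM per kilobase (SD, n = 2); the pair did not differ beyond its spread, and Ifitm1 was the higher in WT library 1. Ifitm2 followed at 323 ± 1.18 CPM per kilobase and Ifitm6 at 4.55 ± 1.74. In the KO-labelled libraries the order was Ifitm3 at 462 ± 40.4, Ifitm2 at 305 ± 23.4, Ifitm1 at 198 ± 24.4 and Ifitm6 at 1.23 ± 0.105 CPM per kilobase (SD, n = 3), and the 4 had that order in each of these libraries. Ifitm10 lay below Ifitm6 in every library.

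The family's cluster was read in gene order (RefSeq, GRCm38.p6), with 10 neighbours on each side that had a row in the table. The order is Ifitm5, Ifitm2, Ifitm1, Ifitm3 and Ifitm6, with no other gene of the table between them, and Ifitm10 lies 50 such genes further on. Of 16 neighbours tested, 1 fell and 0 rose, where 1.18% of all tested genes fell and 0.79% rose. The neighbours' median log2 fold change was -0.11, against 0.001 over all tested genes. The gene that fell was B4galnt4, an N-acetylgalactosaminyltransferase gene next to Ifitm6, with 17.6, 13.2 and 12.9 CPM in the KO-labelled and 27.3 and 32.7 CPM in the WT libraries. Its groups did not overlap, and it was 2.06-fold lower (log2 fold change -1.04 ± 0.18, adjusted p = 0.00862, edgeR); it did not pass without KO library 3, without either WT library or with a replicate block. Pgghg, the nearest tested gene on the other side, had a log2 fold change of -0.18 ± 0.11. Ifitm2 and Ifitm3, whose groups overlapped, lie on either side of Ifitm1.

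**Figure D4:**
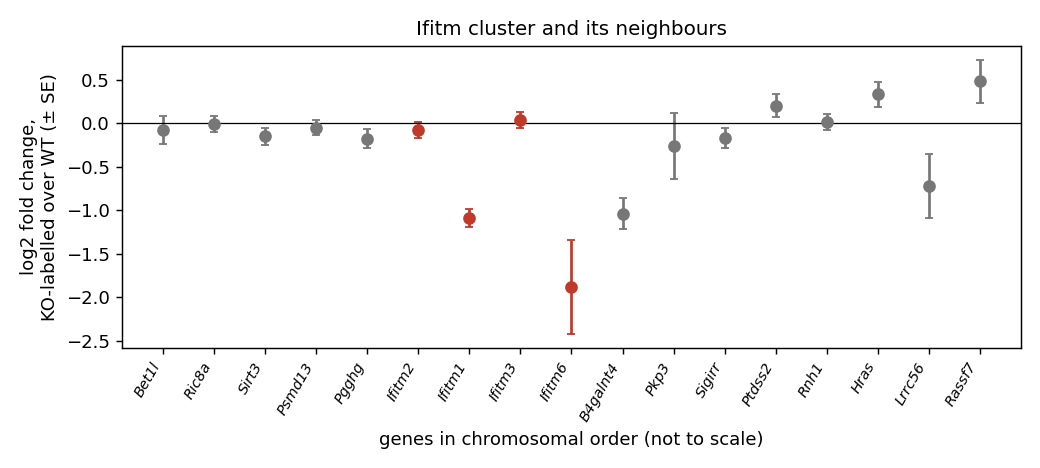
Log2 fold change of KO-labelled over WT libraries with its SE (vertical axis) for the Ifitm cluster (red) and its neighbours (grey) in chromosomal order; 17 of 21 tested genes are plotted, the other 4 having an SE of 1 or more. Ifitm1, Ifitm6 and B4galnt4 lie at or below -1.04, beside Ifitm2 and Ifitm3 near 0.

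Other relatives of the family were scarce. Of 9 relatives, 5 were tested and 0 passed with edgeR or DESeq2. At an unadjusted p under 0.05 (edgeR) 1 passed, where 13.8% of all tested genes did in either direction. Ifitm7, on another chromosome, varied from 0.609 to 2.79 CPM in the KO-labelled and from 1.13 to 4.04 CPM in the WT libraries, and Prrt2, a synaptic relative, had 2.81 ± 0.649 CPM in the KO-labelled and 1.32 ± 0.0625 CPM in the WT libraries, with a log2 fold change of 1.08 ± 0.48. Ifitm5, the bone-specific member, did not exceed 15 counts in any library.

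Among interferon signalling genes a few rose. Of 21 tested, 2 rose and 0 fell, where 0.79% of all tested genes rose, and the list's median log2 fold change was -0.01. Irf7, the factor that amplifies type I interferon, was among them. Values after ± are the SD over 3 KO-labelled or 2 WT libraries, or the SE of a log2 fold change. The mean of Irf7 was 44.2 ± 6.97 CPM in the KO-labelled and 27.7 ± 2.97 CPM in the WT libraries, 1.6-fold higher in the former (edgeR, adjusted p = 0.0423). The receptor genes Ifnar1, Ifnar2, Ifngr1 and Ifngr2 all had log2 fold changes between -0.33 and -0.08 and did not pass. With WT library 1 or 2 left out, 0 signalling genes rose; 1 rose without KO library 2 or 3 and 5 without KO library 1.

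The interferon-induced genes that the family is usually grouped with were higher in part. Of all tested genes, 0.79% rose and 1.18% fell. Of 16 interferon-inducible GTPases, which attack the vacuoles of intracellular microbes, 5 rose and 0 fell, and the median was 0.39. Tgtp2 (1.73-fold, 80.9 ± 7.69 against 46.7 ± 0.883 CPM), Tgtp1 (1.78-fold), Igtp (1.46-fold) and Ifi47 (1.36-fold) were among them, with Iigp1 (log2 fold change 0.56 ± 0.12). Tgtp1 and Tgtp2 are near-identical copies, so how their reads were split is uncertain. Of 41 antiviral genes, Rtp4 rose 1.53-fold (65.7 ± 8.72 against 42.9 ± 2.35 CPM, adjusted p = 0.028, edgeR) and 0 fell, with a median of 0.14, and 17 had all KO-labelled values above both WT values, as 16.5% of all tested genes did. Its most abundant genes, Lgals9 and Lgals3bp, had log2 fold changes of 0.14 ± 0.09 and -0.10 ± 0.08. That other interferon genes were higher was known when the family was chosen, so these counts are no independent evidence. Without WT library 1 or 2, 0 GTPases and 0 antiviral genes passed. Leaving out KO library 3, 1 GTPase rose. Without KO library 2 or 3, 0 antiviral genes rose, and 9 rose without KO library 1.

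The ISRE core, shown above in Ifitm3 and Ifitm2, was found in the promoter windows of 9 of 10 such GTPase genes and 15 of 31 antiviral genes with a window in the table, against 3.99% of all genes. Ifitm3 and Ifitm2, which hold the core, stood near a log2 fold change of 0. Of all 16 GTPases tested 5 rose, and of all 41 antiviral genes 1 rose. Whether genes with the core differed from those without it was not tested.

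**Figure D5:**
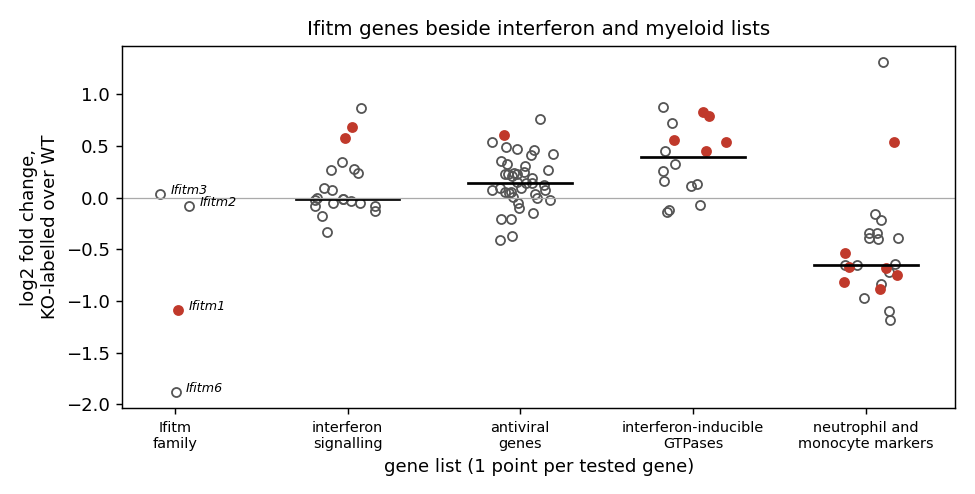
Log2 fold change of KO-labelled over WT libraries (vertical axis) for each tested gene of 5 lists (red, adjusted p under 0.05; open, not past it; black lines, list medians, not drawn for the family). The GTPases have a median of 0.39 and the neutrophil and monocyte markers one of -0.65, and Ifitm1 and Ifitm6 lie below 0.

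Partners of IFITM proteins gave no call. Of 24 genes that modify, bind or sort them, 0 rose and 0 fell with edgeR (median 0.02) and 0 with DESeq2. At an unadjusted p under 0.05 (edgeR) 1 passed, where 13.8% of all tested genes did in either direction. The partners include Nedd4, the ubiquitin ligase of IFITM3 (log2 fold change 0.16 ± 0.07), and Ap2b1, a subunit of the adaptor that binds the sorting signal (0.11 ± 0.08). Zmpste24, a protease that IFITM proteins are known to act with, stood at 106 ± 6.24 against 119 ± 6.31 CPM (log2 fold change -0.16 ± 0.09). Of 18 other restriction factor genes, 0 passed with edgeR or DESeq2 and 1 had an unadjusted p under 0.05 (edgeR), against 13.8% of all tested genes. The most abundant were Serinc3 (-0.07 ± 0.07) and Ly6e (0.01 ± 0.07). Without KO library 1, 1 of the list rose.

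Ifitm1 is also known to be expressed in haematopoietic stem cells. Of 30 stem and multipotent progenitor genes, 0 rose and 0 fell with edgeR and 0 with DESeq2, though 3 fell without KO library 1. At an unadjusted p under 0.05 (edgeR), 2 were higher and 4 lower, where 13.8% of all tested genes passed in either direction. The list's median was -0.02. Cd34, a progenitor marker, stood at 1266 ± 108 against 1304 ± 106 CPM. The list's summed level was 8326 to 8806 CPM in the KO-labelled and 8589 and 8768 CPM in the WT libraries, so it overlapped between the groups. Ly6a, another interferon-inducible gene of these cells, had a log2 fold change of 0.31 ± 0.10 (97.4 ± 7.04 against 78.4 ± 5.03 CPM) and did not pass. In bulk RNA, fewer cells of a type and less RNA per cell cannot be told apart.

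Most neutrophil and monocyte markers were lower in the KO-labelled libraries, as Ifitm1 and Ifitm6 were. Of 23 tested, 6 fell and 1, Ly6c2, rose, where 1.18% of all tested genes fell and 0.79% rose. The markers' median was -0.65, with 21 log2 fold changes below 0 and 2 above it. All KO-labelled values lay below both WT values for 17 of the markers (16.3% of all tested genes did so). Their summed level was 3571 to 4340 CPM in the KO-labelled and 5054 and 5452 CPM in the WT libraries. Of the markers, 0 were at 0 in all libraries. Most of the sum was Mpo, at 2219 to 2869 CPM in the KO-labelled and 3103 and 3443 CPM in the WT libraries. Mpo did not pass. Over KO libraries 1, 2 and 3 the sum was 3571, 3669 and 4340 CPM. Over the same libraries Ifitm1 ran from 164 to 146 and 128 CPM and Ifitm6 from 0.748 to 0.819 and 0.886 CPM. The sum had the order of Mpo (2219, 2386 and 2869 CPM), but the markers had no common order over these libraries. Prtn3 ran from 181.8 to 192.5 and 228.5 CPM, and S100a8 from 35.55 to 26.97 and 26.89 CPM. Prtn3 (1.84-fold), Ctsg (1.59-fold), S100a8 (1.77-fold) and F13a1 (1.45-fold), genes of granules, calprotectin and clotting, were among those that fell. The summed level of megakaryocyte markers was lower too (473 to 752 against 928 and 1035 CPM). The most abundant of them was Vwf, which is also in the stem list. Its groups overlapped (180.9 to 337.4 against 332.3 and 412.2 CPM). Of 10 tested, Itga2b, Selp and Gp1ba fell, while 4 had log2 fold changes above 0, among them Pf4 (0.79 ± 0.26) and Ppbp (1.46 ± 0.57), whose KO-labelled values all lay above both WT values and which did not pass. The summed endothelial and stromal markers were also lower (360 to 405 against 470 and 472 CPM). Of 12 tested, Pecam1 and Pdgfrb fell, while 5 had log2 fold changes above 0, among them Kdr (0.45 ± 0.26) and Kitl (1.10 ± 1.20), which did not pass. The summed erythroid markers were higher (1174 to 1546 against 854 and 976 CPM), and most of that sum was Car2 (825 to 1105 against 606 and 724 CPM). Of 14 erythroid markers tested, 5 rose, among them Klf1, Car1 and Car2. The part of these cells in the Ifitm1 and Ifitm6 values was not tested. Without WT library 1 or 2, 0 myeloid markers passed, and 12 fell without KO library 1. The summed T and NK cell markers stood at 166 to 197 CPM in the KO-labelled libraries, below both WT libraries (199 CPM each). Of 12 tested, Klrb1c fell (15.84 to 24.2 against 38.69 and 44.13 CPM), while 7 had log2 fold changes above 0 (median 0.07). The summed B cell (51.6 to 67.8 CPM) and mast cell (272 to 330 CPM) markers overlapped between the groups. Il1rl1 of 7 mast cell markers rose. The summed macrophage and dendritic cell markers overlapped as well (497.5 to 739 against 558.3 and 604.7 CPM). Of 12 tested, Ccr9 rose with edgeR and 3 with DESeq2. All KO-labelled values lay above both WT values for 5 of these 12 (16.5% of all tested genes did so) and below them for 1.

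The genes whose pattern over the 5 libraries was most like that of Ifitm1 were found among 9781 genes with a mean of at least 10 CPM, by the root mean square difference of centred log2 CPM. They were Igsf10 (0.059), Arhgef28 (0.08), Wfdc17 (0.084), Acpp (0.085), Pim2 (0.102) and Haghl (0.13), where the median over all genes was 0.571. Ifitm2 and Ifitm3 differed from Ifitm1 by 0.504 and 0.566 but from each other by 0.066. For Ifitm2 and Ifitm3 the median difference over all genes was only 0.155 and 0.154. Both varied little, and a flat profile would differ from them by 0.079 and 0.086. Closest to Ifitm2 were Psmg2, Ctsb and Psme2, and closest to Ifitm3 were Chmp2a, Cacfd1 and Polr1c, at differences of 0.004 to 0.018. Closest to Ifitm6 were Vldlr, Csf2rb2 and Tgm1, at 0.285 to 0.354. All of these values describe 5 libraries of 2 groups, so genes that differ between the groups to a like degree come out as alike.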

How the data were processed

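The authors deposited raw read counts for 33862 RefSeq transcripts; the tools STAR, featureCounts and Subread 1.4.5-p1 and the build mm9 (NCBIM37), per the submitters' processing notes, are named. How reads were assigned by strand or when shared is not given in the sources used here. Libraries were stranded messenger RNA, per the labels' protocols. Groups came from the titles. Symbols came from RefSeq for 33485 rows and GENCODE for 188; the other 189 kept their identifier. The row with the most counts was kept per gene.

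After filterByExpr and TMM scaling, counts were fitted over all 5 libraries with edgeR 4.0.16 (R 4.3.3), robust quasi-likelihood, two-sided, with Benjamini-Hochberg adjustment over 14565 genes and a threshold of 0.05. In counts simulated for this comparison over 14226 genes, the test recovered 56.5% of 1.5-fold, 82.6% of 2-fold and 88.4% of 4-fold changes, and 8.4% of calls fell on unchanged genes. DESeq2 1.42.0 was an alternative. The SE is the log2 fold change over the root of the F statistic. Log2 CPM used a prior count of 2. Transcripts and windows came from GENCODE and RefSeq (GRCm38), aligned with Biopython 1.88.

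The members and lists were chosen with earlier results of these data known. Named were all members, up to 4 called genes per list by smallest p or, under 2 calls, the 2 most abundant, called and nearest neighbours, and the genes most like a member. Chosen after their values were seen were the interferon receptors, Ly6a, Zmpste24, Ifitm5, Iigp1, Ly6c2, Mpo, Vwf, Pf4, Ppbp, Kdr, Kitl and Itgam. The targeted gene and some other genes are not reported here. Of all listed symbols, 3 had no row.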

Additional observations from a re-analysis of the deposited data

How the results depend on the processing

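The log2 fold changes of Ifitm1 ranged from -1.18 to -1.0 and those of Ifitm2 from -0.14 to -0.05 over 11 alternatives (other scalings, no count filter, summed transcripts, a replicate block, DESeq2, each library left out), and that of Ifitm3 from -0.03 to 0.09. That of Ifitm6 ran from -2.22 to -1.42 with 1 library left out. Other scalings moved the median of all genes by at most 0.005 on the log2 scale. Ifitm10, which the count filter left out, was fitted in 3 alternatives, at 1.27 to 2.30 with an SE of 2.85 to 3.38. The 287 changed genes (115 higher) became 455 (200 higher) with no count filter, 511 (235 higher, 276 lower) with DESeq2, and 6 to 675 (2 to 312 higher, 4 to 363 lower) with 1 library left out, lowest without WT library 1 and highest without KO library 1. With a replicate block they were 160 (54 higher, 106 lower). Deviations from the group mean correlated at 0.043 and 0.017 between same-numbered libraries. With 2 WT libraries, the deviations of these mirror each other, so the 2 correlations cannot decide whether the numbers pair the samples. The main fit did not pair them. Among signalling genes, 4 rose with no filter, 4 with DESeq2, 1 with summed transcripts, 1 with the replicate block and 0 to 5 with 1 library left out. For antiviral genes these were 2, 2, 0, 0 and 0 to 9. Of GTPases, 1 rose with the block and 0 to 7 with 1 library left out. Of myeloid markers, 11 fell with no filter, 12 with DESeq2 and 0 to 12 with 1 library left out, and 0 rose with summed transcripts or the block and 0 to 1 with 1 library left out. Of neighbours, 2 fell with DESeq2, 0 with the block and 0 to 1 with 1 library left out. With 1 library left out, 0 to 1 restriction factors rose and 0 to 3 stem genes fell. The cause of these shifts was not tested. A lone WT library was assumed to vary like the others.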
